A study of Homo sapiens with 3 samples.

Results

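The tetraspanin genes were followed across 3 RNA-seq libraries of DU145, an androgen-independent cell line from a human prostate carcinoma. The family was taken as the protein-coding genes named TSPAN followed by a number, together with CD9, CD37, CD53, CD63, CD81, CD82, CD151, UPK1A, UPK1B, PRPH2 and ROM1. This rule found 33 of the 58735 genes in the count files. One library was labelled as the control and the other 2, with PD-L1 as the target, Knockdown1 and Knockdown2. The study's methods name the knockdown cells as carrying PD-L1 hairpins sh1 and sh2, delivered in the lentiviral vector pLKO.1 with puromycin selection of stable lines and with the empty vector as the control. They print 1 hairpin sequence, so the target of the other is not given here, and each Knockdown label was represented by 1 library. The control had no replicate, so differences below were read as differences between these libraries.

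CD274, which encodes PD-L1, was counted 204 times in the control, 213 times in the library labelled Knockdown1 and 224 times in the library labelled Knockdown2. Its log2 fold change was 0.05 (SE 0.20, adjusted p = 0.947, edgeR's quasi-likelihood test), so the targeted RNA was not lower and the libraries are named by their labels. The study checked its stable lines, DU145 among them, by Western blot for PD-L1 protein, which RNA counts do not measure. The libraries held 14733088, 14738298 and 15786457 counts. At these depths 3 counts, the limit that a count of 0 allows, equalled 0.204, 0.204 and 0.190 CPM, counts scaled to a library total of 1000000. The epithelial markers KRT8, KRT18, KRT19, EPCAM and CDH1 together reached 2179, 2374 and 2406 CPM. KLK2, KLK3 and TMPRSS2, genes of the androgen-responsive prostate epithelium, had 0 counts in each library. The column of the control was headed with the name of another gene and the series text named another cell line, and 4 thyroid markers summed to 28, 40 and 53 counts.

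Tetraspanins are small membrane proteins that cross the membrane 4 times and expose a large extracellular loop. The loop carries a Cys-Cys-Gly sequence whose cysteines form disulfide bonds, and through it and other contacts the proteins hold integrins, proteases and receptors in clusters within the membrane. Some of them are standard markers of extracellular vesicles, others are confined to leukocytes, urothelium or the photoreceptor disc rim.

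The Cys-Cys-Gly codons were located in 1 complete coding sequence per gene of the GENCODE release 29 annotation of GRCh38, the annotation whose identifiers and positions the files carry. The letters searched were TGTTGTGGN, TGTTGCGGN, TGCTGTGGN and TGCTGCGGN, in frame and on the coding strand only. All 33 tetraspanin coding sequences held at least 1 match, against 502 of 19451 other protein-coding genes (2.58%). In the following windows of 27 bases, which are shown because they mark the members that later paragraphs turn on as one family, capitals mark the Cys-Cys-Gly codons:
CD63: gattttaagTGCTGTGGGgctgctaac
CD151: gagttccacTGCTGTGGCagcaacaac
CD81: acgcttgacTGCTGTGGCtccagcaca
CD9: gcgttgaacTGCTGTGGTttggctggg
CD82: caggtgaagTGCTGCGGCtgggtcagc
TSPAN9: gagatgcgaTGCTGTGGTgtcactgac
TSPAN13: aatctaaacTGCTGTGGGttccgaagt
TSPAN6: acgttgcatTGTTGTGGTgtcaccgat
CD53: tttctgcagTGTTGTGGTataaatggc

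Outside the capitals the windows differed from gene to gene, whereas the capitals differed only in the last base of a codon. The CD151 window joined exons 5 and 6 of CD151-203 and spanned chr11:837352-837483 on the plus strand. The CD63 window joined exons 4 and 5 of CD63-214 at chr12:55726238-55726702 on the minus strand. The windows of CD81 (exons 5 and 6, chr11:2395518-2395892), CD9 (exons 6 and 7, chr12:6235325-6235499) and CD82 (exons 7 and 8, chr11:44615371-44618185) lay on the plus strand. So did those of TSPAN9 (exons 5 and 6, chr12:3280481-3281221) and CD53 (exons 6 and 7, chr1:110895053-110896676). The TSPAN6 window joined exons 4 and 5 at chrX:100633516-100633933 on the minus strand. The TSPAN13 window lay within exon 4, at chr7:16777858-16777884 on the plus strand. Across the family the window crossed an exon junction in 28 genes and lay within 1 exon in 5. The motif began between codons 128 and 250 of coding sequences 204 to 393 codons long. In 8 members a second match was present, and the one nearest codon 153, the median of the members with 1 match, was used.

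Of the 33 members, the control held counts for 30, the library labelled Knockdown1 for 28 and the library labelled Knockdown2 for 31. UPK1B, a uroplakin of the urothelial plaque, and TSPAN19 had 0 counts in all 3 libraries, which allows up to 3 counts in each. PRPH2, a structural protein of the photoreceptor disc rim, had 0, 0 and 3 counts. These 3 genes fell below the filter of 10 counts summed over the libraries, and the other 30 members were tested. With a mean of at least 100 counts, 20 members were called well counted, and the statements on direction below rest on them.

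The family took 0.144% of the counts in the control (95% Wilson interval 0.142 to 0.146%). Its share was 0.159% (0.157 to 0.161%) in the library labelled Knockdown1 and 0.167% (0.165 to 0.169%) in the library labelled Knockdown2. The 3 intervals did not overlap. They cover counting error only, and they are too narrow where several reads are PCR copies of 1 molecule. With 1 library per label, they do not measure the spread between libraries of a condition. CD63 alone supplied 18.3%, 20.01% and 19.8% of the tetraspanin counts, and CD151 13.1%, 14.71% and 16.7%.

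Per length, in the deposited FPKM, the order of the family was led by CD63, a tetraspanin of late endosomes and vesicles. Its levels were 99.4 FPKM in the control, 121 FPKM in Knockdown1 and 126 FPKM in Knockdown2, the order kept for the values below. CD151, which binds laminin-binding integrins, followed at 47.3, 59.2 and 71.1 FPKM. Below CD63 and CD151, no tetraspanin reached the lowest CD151 level in any library. CD9, a membrane partner of HBEGF and of immunoglobulin-like proteins, stood at 28.5, 33.5 and 31.6 FPKM. CD81, a widely expressed tetraspanin that is a receptor of hepatitis C virus, stood at 21.2, 24.3 and 24.9 FPKM, and TSPAN3 at 22.9, 24.4 and 22.3 FPKM. The ranges of CD81 and TSPAN3 overlapped, so these neighbours could not be ordered, while CD9 lay above both in each library. These 5 genes made up 65.7%, 69.9% and 68.8% of the summed FPKM of the family.

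**Figure D1:**
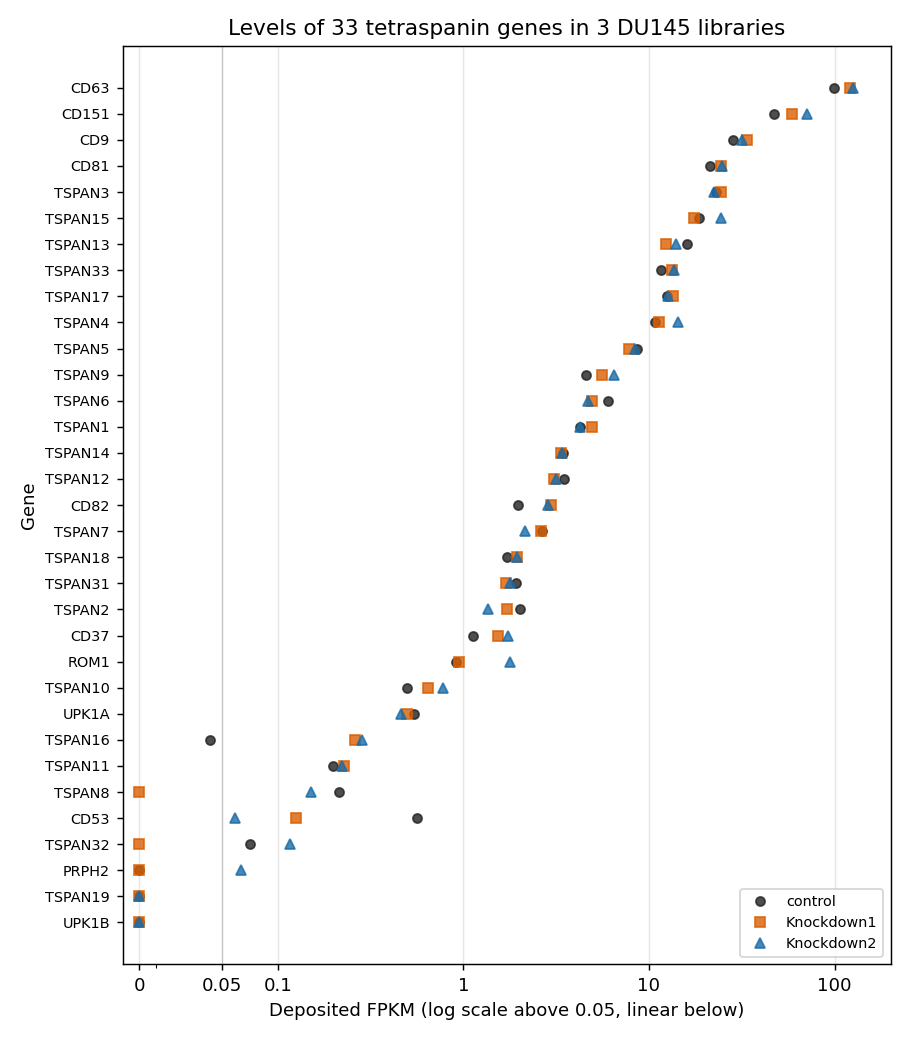
Level of each tetraspanin gene (vertical axis, in order) in FPKM on a horizontal axis that is logarithmic above 0.05 and linear below, with 1 point for each of the 3 libraries. CD63 and CD151 stand apart at the top, 10 members exceed 10 FPKM in all libraries, and the points of most neighbouring genes overlap.

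In the plot of levels 10 members exceeded 10 FPKM in all 3 libraries, 12 had a median between 1 and 10 FPKM and 11 a median under 1 FPKM. Of the 31 pairs of neighbours in this order, 20 had overlapping ranges over the libraries. The tissue-restricted members lay at the bottom. UPK1A, the other membrane-spanning uroplakin of the family, had 11, 10 and 10 counts, and its urothelial partners UPK2 and UPK3A together 27, 12 and 17. The related uroplakin gene UPK3B was higher, with 106, 103 and 143 counts. ROM1, which pairs with PRPH2 in photoreceptors, had 34, 35 and 70 counts, while the photoreceptor marker SAG had 0 in each library. ROM1 shares 618 exon bases (24.8% of its exon bases) with EML3, which had 642, 695 and 921 counts. Whether strand was used in counting is not stated in the sources used here, so reads in such stretches cannot be assigned to 1 gene.

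The leukocyte members CD53, CD37 and TSPAN32 were low in these epithelial cells, and CD53 was the only tetraspanin below the control with a log2 fold change under -1 and an unadjusted p under 0.05. CD53, a tetraspanin of the leukocyte surface encoded at chr1:110871188-110899928 of GRCh38, was counted 18 times in the control, 4 in the library labelled Knockdown1 and 2 in the library labelled Knockdown2. Both of the latter libraries lay below the control, and the level was at most 0.563 FPKM in any library. The ratio to the control was 0.222 (95% counting interval 0.0547 to 0.674) and 0.104 (0.0117 to 0.433). The log2 fold change was -2.58 (SE 0.94), with an unadjusted p of 0.0063 and an adjusted p of 0.225 in edgeR's quasi-likelihood test over 19849 genes. CD53 therefore did not pass the adjusted threshold, and with DESeq2 its unadjusted p was 0.105. By quantitative PCR, which these counts do not cover, the study reported CD53 as significantly lower in its PD-L1 knockdown group. Of all tested genes, 0.942% were lower by the same rule of size and unadjusted p. No tetraspanin was higher by it, where 1.54% of all tested genes were.

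Markers of blood cells were at the same very low level as CD53. PTPRC, the common leukocyte antigen, had 0, 3 and 1 counts, and CD14 15, 3 and 10. The 6 leukocyte markers reported here summed to 17, 6 and 11 counts, with 3 of the 6 at 0 in every library. Any part of blood-cell RNA in the CD53 values was not tested. In bulk RNA, fewer cells expressing a gene and less of its RNA per cell cannot be told apart. CD37, a B-cell tetraspanin, had 70, 95 and 114 counts, lowest in the control. Its log2 fold change of 0.53 (SE 0.29, adjusted p = 0.461, edgeR) did not pass the test, and 319 of its exon bases are shared with TEAD2. TSPAN32, a gene of blood cells, had 4, 0 and 7 counts.

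CD151 was the only tetraspanin past an adjusted p of 0.05, and it was higher in both Knockdown libraries. The gene (ENSG00000177697) lies at chr11:832843-839831 of GRCh38 on the plus strand. The control held 2766 counts of it, against 3449 in the library labelled Knockdown1 and 4426 in the library labelled Knockdown2. The control was lowest and the library labelled Knockdown2 was highest. The ratios to the control were 1.25 (95% counting interval 1.19 to 1.31) and 1.49 (1.42 to 1.57), so the Knockdown libraries also differed from each other beyond counting error. CD151 rose 1.37-fold, a log2 fold change of 0.46 (SE 0.12, adjusted p = 0.0361, edgeR's quasi-likelihood test, adjusted after Benjamini and Hochberg). Among all tested genes 0.247% were higher at that threshold and 0.106% lower, and 0 tetraspanins were lower, with CD53 alone lower at an unadjusted p under 0.05.

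The call for CD151 depended on the test. Its adjusted p was 0.144 when genes needed at least 30 counts, 0.765 when trends with gene length and GC content were removed, and 1.00 with DESeq2. Left without the library labelled Knockdown1 the log2 fold change was 0.58, and left without the library labelled Knockdown2 it was 0.32. In exon sequence CD151 shares 257 bases (6.53% of its exon bases) with POLR2L on the opposite strand, which had 1262, 1464 and 1702 counts.

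The other vesicle and integrin tetraspanins lay above the control more often than below it, and none passed the adjusted threshold. CD63 (chr12:55725323-55729707) had 3886, 4692 and 5238 counts. Its ratios were 1.21 (95% counting interval 1.16 to 1.26) and 1.26 (1.21 to 1.31), and its log2 fold change was 0.31 (SE 0.11, adjusted p = 0.243, edgeR). The control was the lowest library for CD63, as it was for CD151.

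CD82, known as KAI1 and first described as a metastasis suppressor of prostate cancer, had the largest difference of the well-counted members. Its counts were 119, 177 and 183. The library labelled Knockdown1 was 1.49 times the control (95% counting interval 1.17 to 1.89) and the library labelled Knockdown2 was 1.44 times (1.13 to 1.82), so these libraries lay close to each other. The log2 fold change was 0.55 (SE 0.23) and the adjusted p 0.312 in edgeR's test.

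CD81 had 2327, 2659 and 2907 counts, with ratios of 1.14 (95% interval 1.08 to 1.21) and 1.17 (1.10 to 1.23) and a log2 fold change of 0.21 (SE 0.12, adjusted p = 0.486, edgeR). CD9 had 1760, 2065 and 2079 counts, with ratios of 1.17 (1.10 to 1.25) and 1.10 (1.03 to 1.18), and a log2 fold change of 0.19 (SE 0.12, adjusted p = 0.562, edgeR). For CD81 and CD9 both Knockdown libraries lay above the control, by less than for CD63 and CD151. TSPAN4, whose gene lies next to CD151 with 2976 bases and no gene between them, had 936, 978 and 1316 counts. Its ratio was 1.04 (0.954 to 1.14) in the library labelled Knockdown1 and 1.31 (1.21 to 1.43) in the library labelled Knockdown2, so only the latter stood apart from the control. TSPAN1 had 150, 172 and 158 counts and TSPAN8, a gene of gut epithelium and its tumours, 8, 0 and 6. Over the 8 members of this group the median log2 fold change was 0.23, and for 5 of them both counting intervals lay above 1, beside 10.0% of all tested and 16.3% of all well-counted genes. The 5 lay in the upper GC groups described below, where the share was 26.0% and 42.4%.

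**Figure D2:**
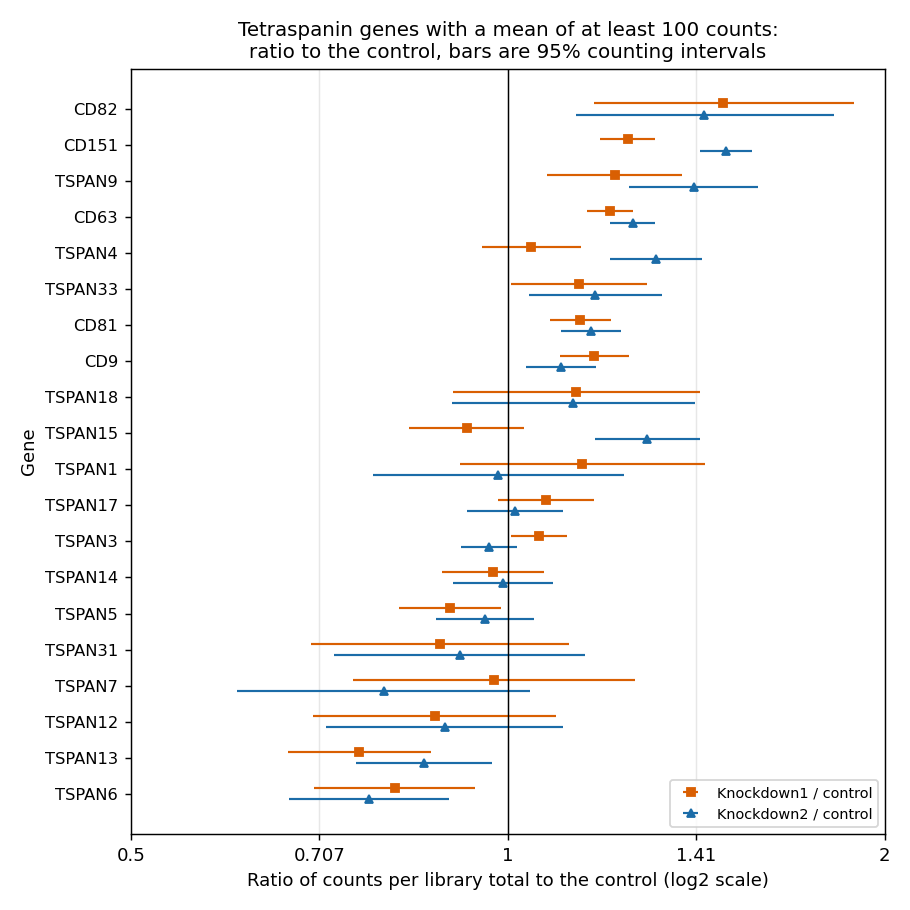
Ratio of each Knockdown library to the control, in counts per library total, on a logarithmic horizontal axis with 95% counting intervals as bars, for the 20 well-counted tetraspanin genes. CD151, CD63, CD82, TSPAN9, CD81, CD9 and TSPAN33 lie above 1 in both libraries, and TSPAN13 and TSPAN6 below 1 in both.

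The tetraspanins named TspanC8, which escort the sheddase ADAM10 to the cell surface and steer its choice of substrate, showed no common direction. TSPAN33 had 472, 538 and 594 counts, with ratios of 1.14 (95% interval 1.01 to 1.29) and 1.17 (1.04 to 1.33), above the control in both libraries. TSPAN15 had 735, 682 and 1018 counts, with ratios of 0.928 (0.835 to 1.03) and 1.29 (1.17 to 1.42). It was thus level with the control within counting error in the library labelled Knockdown1 and above it in the library labelled Knockdown2. TSPAN5 had 955, 859 and 982 counts, TSPAN14 910, 886 and 966, TSPAN17 965, 1036 and 1048, and TSPAN10 35, 45 and 58. The lowest adjusted p of the 6 genes was 0.632 in edgeR's test, and their median log2 fold change was 0.11.

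ADAM10 itself (chr15:58588807-58749978) had 2992, 2753 and 1509 counts, and was the 1 gene of 26 tested partners past the adjusted threshold. At that threshold 0.106% of all tested genes were lower and 0.247% higher. The ratio of ADAM10 to the control was 0.920 (95% counting interval 0.873 to 0.969) in the library labelled Knockdown1 and 0.471 (0.442 to 0.501) in the library labelled Knockdown2. ADAM10 fell by 0.52 on the log2 scale (SE 0.12, adjusted p = 0.00689, edgeR's quasi-likelihood test), almost wholly in the library labelled Knockdown2: left without that library the log2 fold change was -0.11, and without the library labelled Knockdown1 it was -1.08. The log2 fold change was also -0.52 with a minimum of 30 counts and with DESeq2, where the adjusted p was 0.281 and 1.00. It was -0.27 with the trends with gene length and GC content removed (adjusted p 0.833, edgeR), and the GC content of ADAM10 was 38.3%. The test used a dispersion pooled over genes, so the distance between the Knockdown libraries for ADAM10 itself hardly entered its p. The related sheddase ADAM17 had 1637, 1527 and 1616 counts. None of the 6 TspanC8 genes had its lowest count in the library labelled Knockdown2.

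Among the remaining members TSPAN9 was the highest against the control, and TSPAN13 and TSPAN6 the lowest of the well-counted ones. TSPAN9, a tetraspanin also found on platelets, had 468, 570 and 706 counts, with ratios of 1.22 (95% counting interval 1.08 to 1.38) and 1.41 (1.25 to 1.59). Its log2 fold change was 0.40 (SE 0.16, adjusted p = 0.280, edgeR). Both Knockdown libraries lay above the control.

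TSPAN6, on the X chromosome, had 406, 330 and 337 counts, with ratios of 0.813 (95% interval 0.701 to 0.942) and 0.775 (0.668 to 0.897), and a log2 fold change of -0.33 (SE 0.17, adjusted p = 0.439, edgeR). TSPAN13 had 532, 405 and 489 counts, with ratios of 0.761 (0.667 to 0.868) and 0.858 (0.757 to 0.972). In both genes the control was the highest library, and neither difference passed the adjusted test. TSPAN3 had 2897, 3069 and 3001 counts and lay on both sides of the control, with ratios of 1.06 (1.01 to 1.11) and 0.967 (0.918 to 1.02) and a log2 fold change of 0.02 (SE 0.12, adjusted p = 0.963, edgeR).

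TSPAN12, a co-receptor for Norrin at FZD4, had 175, 153 and 167 counts. TSPAN7, a gene of X-linked intellectual disability, had 123, 120 and 105, and TSPAN2 102, 87 and 73. TSPAN31 had 154, 136 and 151 counts and shares 1369 exon bases (25.4%) with its neighbour CDK4, which had 929, 1141 and 1189. For these 4 genes the counts per library total were below the control in both Knockdown libraries. TSPAN18 had 149, 169 and 180 counts, TSPAN11 21, 24 and 25, and TSPAN16 1, 6 and 7. The ratios of TSPAN16, 5.998 and 6.53, had intervals from 0.728 to 276 and from 0.839 to 294, so that a difference was not detectable at this depth.

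Over the well-counted members, 10 of 20 had a higher CPM than the control in both Knockdown libraries, where 39.1% of the 10861 well-counted genes did, and 7 were lower in both, where 39.2% did. Both counting intervals lay above 1 for 7 of the 20, against 16.3% of the well-counted genes. They lay below 1 for 2 of the 20, against 14.4%. Over all 30 tested members the intervals lay above 1 for 7 and below 1 for 3, beside 10.0% and 9.06% of all tested genes, and the CPM was higher in both libraries for 15 and lower in both for 11, beside 35.7% and 38.6%. The median log2 fold change of the 20 members was 0.12, beside 0.0031 for all well-counted genes. Of the 30 tested members, 5 (CD53, CD63, CD82, CD151 and TSPAN9) had an unadjusted p under 0.05, where 11.7% of all tested genes did. With DESeq2 these were CD63 and CD151 only.

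The direction of a member went with the GC content of its longest transcript, and so did that of all genes. The 10 members above the control in both libraries had a GC content of 51.4 to 64.9% (median 58.1%), and the 7 below it 38.6 to 50.5% (median 44.4%), so the ranges did not overlap. When the 10861 well-counted genes were split into 5 groups of equal size by GC content, the median log2 fold change ran from -0.18 in the lowest group through -0.10, -0.01 and 0.11 to 0.21 in the highest. The tetraspanins in the same groups, 1, 3, 4, 6 and 6 in number, had medians of -0.33, -0.18, -0.09, 0.19 and 0.32. In the highest group, which held CD151, CD81, CD82, TSPAN4, TSPAN9 and TSPAN17, 78.9% of all genes and 6 of 6 members had a higher CPM in both libraries. In the lowest group 77.3% of all genes had a lower CPM in both, as had its 1 member, TSPAN6.

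**Figure D3:**
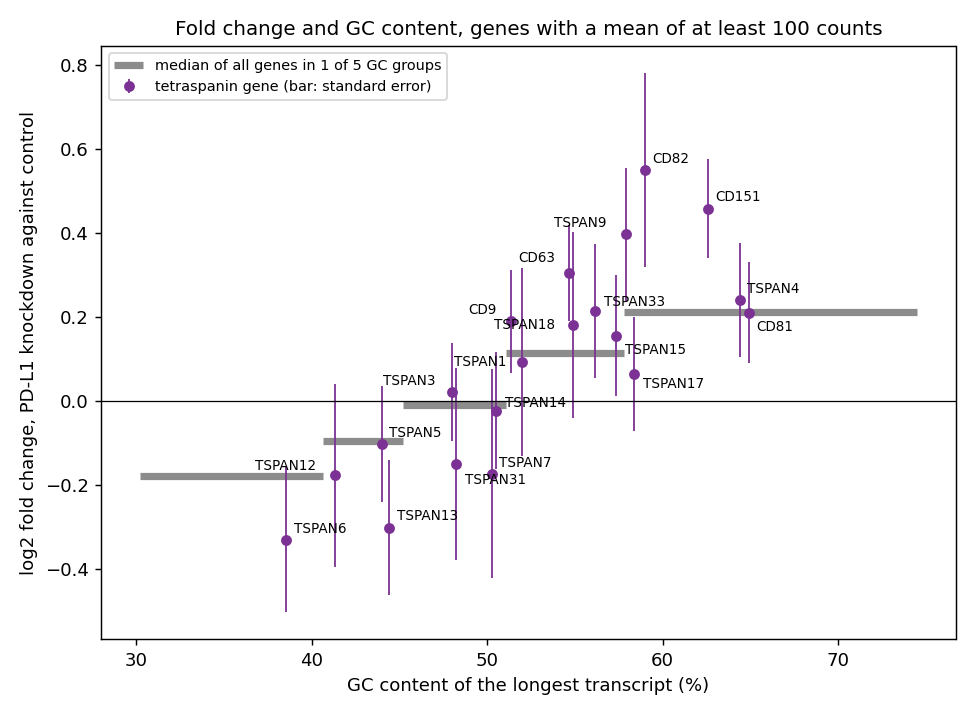
Log2 fold change of the 20 well-counted tetraspanin genes (vertical axis, bars give the standard error) against the GC content of the longest transcript in percent, with grey lines at the median of all well-counted genes in each of 5 groups by GC content. Members at low GC content lie mostly below 0 and those at high GC content above it, from TSPAN6, the lowest at -0.33, to CD82, the highest at 0.55, with TSPAN4 and CD81 at the right end near the grey line.

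With trends with gene length and GC content removed from each library, the median log2 fold change of the 20 members was 0.03, beside 0.02 for all well-counted genes. The value lay closer to 0 for 16 of the 20 and kept its sign for 15. The 5 that changed sign were TSPAN1, TSPAN5, TSPAN14, TSPAN15 and TSPAN17. CD151 was then at 0.26, TSPAN9 at 0.26, CD63 at 0.15, CD9 at 0.16, CD81 at 0.03 and TSPAN4 at 0.02. CD82 remained the highest of the well-counted members at 0.38 and TSPAN13 was the lowest at -0.29, almost as before. The lowest adjusted p of any member was 0.765 in edgeR's test, and 2 members, CD53 and CD151, had an unadjusted p under 0.05.

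**Figure D4:**
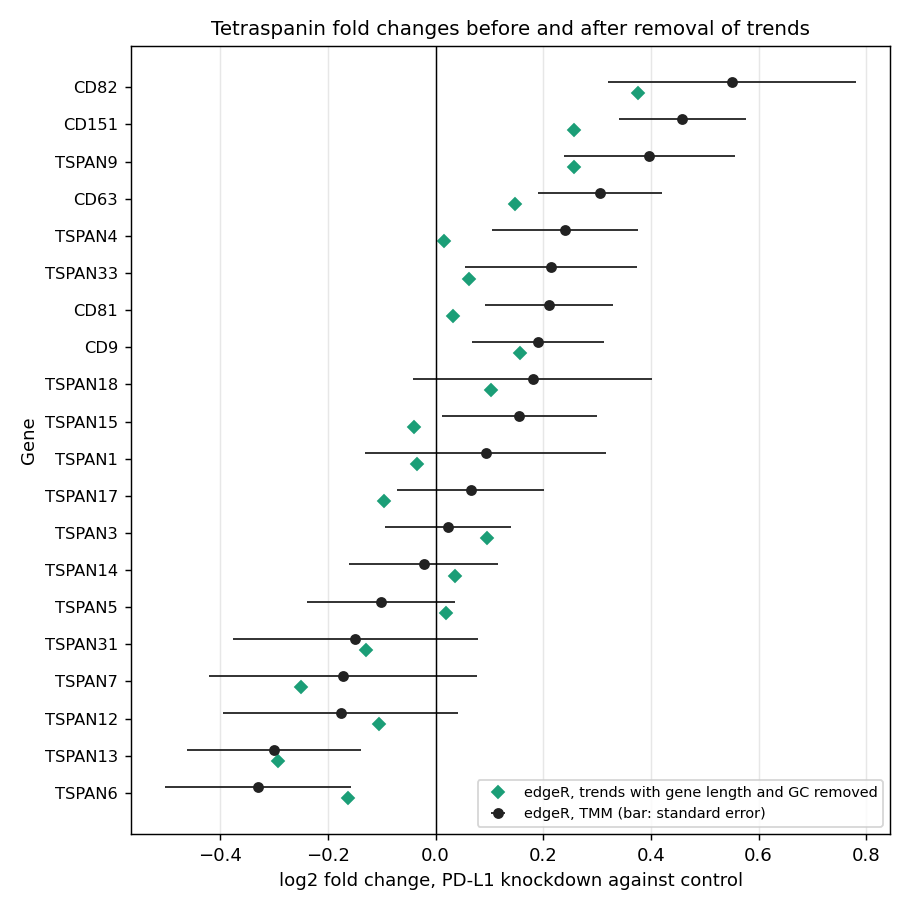
Log2 fold change of each well-counted tetraspanin gene on the horizontal axis, as fitted (circles, bars give the standard error) and with the trends with gene length and GC content removed (diamonds). Most members move toward 0, CD151 from 0.46 to 0.26 and CD81 from 0.21 to 0.03, while TSPAN13 stays near -0.30.

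The molecules that tetraspanins hold were measured in the same libraries as a list of 28 partner genes, of which ITGA4 and NDP were too low to test. Of the 26 tested, 7 had a higher CPM in both Knockdown libraries and 12 a lower one, beside 35.7% and 38.6% of all tested genes. Their median log2 fold change was -0.05, and 0.04 with the trends removed. ITGB4, a chain of a laminin-binding integrin found with CD151 in hemidesmosomes, had 1804, 2178 and 2737 counts. Its log2 fold change was 0.40 (SE 0.12, adjusted p = 0.124, edgeR). IGSF8, an immunoglobulin-like partner of CD9 and CD81, had 317, 437 and 493 counts, which gave a log2 fold change of 0.50 (SE 0.17, adjusted p = 0.193, edgeR). For both genes the control was lowest and the library labelled Knockdown2 highest, the order also seen for CD151, and neither passed the test. Their GC contents were 63.7% and 63.5%, in the highest GC group, where 78.9% of all genes were higher in both libraries. With the trends removed the log2 fold changes were 0.23 and 0.26. Among the other tested partners of the same kinds, ITGA3 shared this order, while ITGA6, ITGB1, ITGA7 and PTGFRN did not. The integrin chain ITGA6 had ratios to the control of 0.920 and 0.977, and the immunoglobulin-like PTGFRN 0.973 and 0.964. Their log2 fold changes were -0.07 and -0.04.

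ITGB1, the integrin chain shared by several tetraspanin complexes, had 28380, 26266 and 28488 counts, and SDCBP, the syntenin of vesicle budding that binds CD63, had 2663, 2467 and 2534. Both genes were below the control in each library by their counting intervals, with log2 fold changes of -0.10 and -0.14 that did not pass the test. Their GC contents of 40.0% and 39.2% put them in the lowest GC group, where 77.3% of all genes were lower in both libraries, and with the trends removed the sign turned, to 0.05 and 0.0071. ITGA3, which pairs with ITGB1 and CD151, had 17452, 17607 and 22330 counts. Its ratios to the control were 1.01 (counting interval 0.988 to 1.03) and 1.19 (1.17 to 1.22). Only the library labelled Knockdown2 thus stood apart from the control. The log2 fold change of ITGA3 was 0.14, which did not pass the test, and 0.05 with the trends removed. LRP5, the co-receptor that joins FZD4 and TSPAN12, had 2350, 2639 and 3197 counts, above the control in both libraries by its intervals, with a log2 fold change of 0.26 that was 0.09 with the trends removed.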

How the data were processed

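RNA-seq was made from DU145 cells (1 control library, 2 labelled Knockdown with PD-L1 as the target), with groups taken from the labels. The authors deposited whole read counts per gene and FPKM values. Per the submitters' processing notes the tools were Bowtie2 2.0.6, TopHat2 2.0.9, Cufflinks 2.1.1 and Cuffdiff 2.1.1, and counting was not described further in the sources used here. The deposited FPKM values were the count divided by gene length and by 1 constant per library. This held within 0.1% for 100% of the values checked, which left out the lowest values above 0. The identifiers and positions of all 58735 genes matched GENCODE release 29.

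For the 19849 genes whose counts summed to 10 or more, the groups were compared in R 4.3.3 with edgeR 4.0.16 (TMM, glmQLFit, glmQLFTest, Benjamini-Hochberg). The control is single, so the fit has 1 residual degree of freedom, taken from the 2 Knockdown libraries. Its estimated prior degrees of freedom were infinite, so each gene was tested at a dispersion pooled over genes and its own spread hardly entered. The p-values rest on this pooled spread between the 2 Knockdown libraries and hold no estimate of spread for the control. A gene counted as called at an adjusted p under 0.05, or at an unadjusted p under 0.05 with an absolute log2 fold change above 1. Ratios per library total carry exact conditional binomial 95% counting intervals. Alternatives were DESeq2 1.42.0, other scalings and count minimums, and offsets for gene length and GC content in 20 classes. The fit was also run on simulated data. These held no trend with gene length or GC content and only changes larger than that of CD151, so they do not bear on its call.

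Full statistics were given for CD53, members called by either rule, the 5 members with the highest mean count and the 5 well-counted members with the largest absolute log2 fold change. The members and the lists of partners and markers were chosen with earlier results of these data known. Some marker genes are not reported here.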

Additional observations from a re-analysis of the deposited data

How the results depend on the processing

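Across all genes, the adjusted p was under 0.05 for 49 higher and 21 lower genes, which became 13 and 4 with at least 30 counts, 3 and 3 with DESeq2, and 1 and 3 with the trends with gene length and GC content removed. The 305 higher and 187 lower genes at the unadjusted rule became 160 and 104 with at least 30 counts, and 39 and 7 with DESeq2. Of the tetraspanins, CD151 was the 1 gene past the adjusted p, which became 0 under each of these 3 settings. The 1 gene lower at the unadjusted rule, CD53, became 0 with DESeq2 and with at least 30 counts, a filter that removes it. The median log2 fold change of the members was 0.12, and 0.026 with the trends removed. It was 0.15 without the library labelled Knockdown1 and 0.08 without the library labelled Knockdown2. For the partners, ADAM10 was the 1 gene past the adjusted p, which also became 0 under the same 3 settings. Their median of -0.048 was -0.046 with DESeq2 size factors, -0.052 with library totals alone, -0.045 with at least 1 count, -0.046 with at least 30 counts, 0.036 with the trends removed, -0.051 without the library labelled Knockdown1 and -0.048 without the library labelled Knockdown2. No called value changed sign. The counts of members on 1 side of the control by both intervals, 7 and 3, were the same with TMM-scaled totals. Leaving out a library gives values without a test, since no residual degree of freedom remains. No paired analysis was possible because the control carries no replicate number. The cause of these changes was not tested.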

Other observations

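Tetraspanin genes were most frequent on chromosomes 11 and 12, with 7 members on each. Besides CD151 and TSPAN4, which have no gene between them, TSPAN32 and CD81 lie 57976 bases apart and CD82 and TSPAN18 106101 bases apart, each pair with 3 genes between its members.

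Noncoding genes named after tetraspanins lay outside the family rule and had few counts. CD81-AS1 was counted 2 times in the control, 3 times in Knockdown1 and 0 times in Knockdown2. TSPAN9-IT1 had 0 in each, and UPK1A-AS1, which shares 258 exon bases with UPK1A, had 2, 7 and 1.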
